A study of Mus musculus with 10 samples.

Results

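The genes described here are transcription factors and cofactors that pattern the striatum and neighbouring forebrain regions. They were chosen by name, from a list of 52 symbols, as those present in the deposited gene table. Of the 52, 48 were listed among 20483 genes, and Nkx2-1, Tbr1, Ikzf1 and Peg3as were not analysed here. Tissue was taken from the lateral shell (n = 5 libraries) and the medial shell (n = 5 libraries) of the nucleus accumbens, the ventral part of the striatum, in mice of WT genotype. No age, treatment or further allele is given in the labels. Complementary DNA came from Geo-seq, in which small pieces of a section are captured by laser and their RNA is amplified. The labels call the libraries of a region biological replicates but name no animal, so p-values measure the spread between these libraries, which may be partly technical. Values are TPM, a transcript abundance scaled by gene length and by the total of each library.

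Most neurons of the striatum are GABAergic spiny projection neurons, which arise in the lateral ganglionic eminence and fall into a Drd1 and a Drd2 class. Their identity is set by a combination of transcription factors. Bcl11b and Foxp1 act in both classes, Isl1 and Ebf1 in Drd1 neurons, and Six3, Sp8 and Sp9 in Drd2 neurons. Factors of other forebrain regions, such as Fezf2 and Neurod6 of the cerebral cortex, mark cells from outside the striatum. In bulk tissue, fewer cells of a type and less RNA per cell cannot be told apart.

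Of the 43 listed factors that passed the filter on low values (at least 1 TPM in at least 5 of 10 libraries), 2 were higher in the medial shell and 0 in the lateral shell. The 2 were Foxo1, a forkhead factor regulated by insulin signalling, and Rreb1, a zinc finger protein that binds Ras-responsive elements. The test was limma's moderated test on log2(TPM + 1) with Benjamini-Hochberg adjusted p under 0.05 over all 15596 genes tested. Over those genes it called 1.48%, with 1.1% higher in medial and 0.385% higher in lateral. At an unadjusted p under 0.05, 4 of the 43 factors were on the medial side and 3 on the lateral side, 16.3% of them, against 15.4% of all genes tested (12.3% medial, 3.03% lateral). For 3 of the 43 factors every library of a region lay above every library of the other. These were Foxo1, Rreb1 and the POU homeodomain gene Pou3f4, all with medial values above. Over all genes tested 4.25% were apart in this way, 3.39% with medial and 0.859% with lateral values above.

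The median log2 fold change of the 43 factors, lateral minus medial, was 0.01, and that of all genes tested was -0.21. Of the 43, 22 had positive and 21 negative values (51.2% positive, against 31.3% of all genes tested). Under median-ratio scaling these counts were 30 and 13, with a median of 0.19 against -0.02 for all genes. For 20 of the 41 factors that were not called, the 95% interval reached a log2 difference of 1 or more in either direction. For the other 21 the interval lay within 1, so a larger difference than 2-fold on this scale was outside it.

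To place the 3 factors whose values did not overlap, the bases before their start sites are given from RefSeq on GRCm38.p6, as far as they lie in no annotated exon. The Foxo1 stretch is chr3:52268087-52268335 and the Pou3f4 stretch is chrX:110814129-110814279, both on the plus strand. For Rreb1 the first of 4 listed starts is used, chr13:37826662-37826911 on the plus strand. This stretch lies inside the span of Rreb1 in GENCODE M21 (37778400 to 37952005), not before it. Capitals mark matches on either strand to CCAAT (the CCAAT box), GGGCGG (the GC box of Sp-type zinc fingers), GTAAACA (a forkhead core), TGACAG (a Meis core) and ATGCAAAT (the octamer of POU factors).
Foxo1: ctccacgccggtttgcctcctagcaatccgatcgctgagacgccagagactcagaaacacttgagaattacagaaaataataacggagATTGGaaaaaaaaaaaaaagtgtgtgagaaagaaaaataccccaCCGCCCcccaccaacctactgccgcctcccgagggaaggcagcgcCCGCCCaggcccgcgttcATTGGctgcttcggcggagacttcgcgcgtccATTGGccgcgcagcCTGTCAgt
Rreb1: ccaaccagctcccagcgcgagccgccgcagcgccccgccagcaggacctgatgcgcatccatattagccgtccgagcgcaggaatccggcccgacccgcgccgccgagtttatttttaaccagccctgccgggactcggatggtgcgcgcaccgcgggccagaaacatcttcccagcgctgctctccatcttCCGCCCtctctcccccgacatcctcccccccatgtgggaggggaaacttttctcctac
Pou3f4: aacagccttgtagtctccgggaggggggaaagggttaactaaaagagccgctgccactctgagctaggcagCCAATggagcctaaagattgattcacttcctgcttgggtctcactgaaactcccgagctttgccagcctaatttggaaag
The Foxo1 stretch held 3 CCAAT, 2 GGGCGG and 1 TGACAG match, the Rreb1 stretch 1 GGGCGG match and the Pou3f4 stretch 1 CCAAT match. CCAAT occurred in 34.5% and GGGCGG in 32.9% of the windows of 250 bases before the first listed start of 27025 genes, TGACAG in 16.0%, GTAAACA in 3.09% and ATGCAAAT in 1.61%. A start was matched for 40 of the 48 factors, and 21 of those windows held CCAAT, 18 GGGCGG, 6 TGACAG, 1 ATGCAAAT and 0 GTAAACA. A match is a string of letters and was not tested as a binding site.

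The levels of the 48 factors ran from a mean of 82.0 TPM for Lmo4 to 0.301 TPM for Sp8 over the 10 libraries. After Lmo4, a LIM-only cofactor, came the helix-loop-helix inhibitor Id4 (69.0 TPM), the zinc finger factor Bcl11b (66.4 TPM), the homeodomain factor Meis2 (64.0 TPM) and the forkhead factor Foxp1 (58.2 TPM). Means were at least 10 TPM for 21 factors and under 1 TPM for 4. Listed values were above 0 in every library for 39 factors and at 0 in at least 1 library for 9. The 5 factors that did not pass the filter were Sp8, Ikzf2, Eya1, Fezf2 and Neurod6, so no test is given for them.

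**Figure D1:**
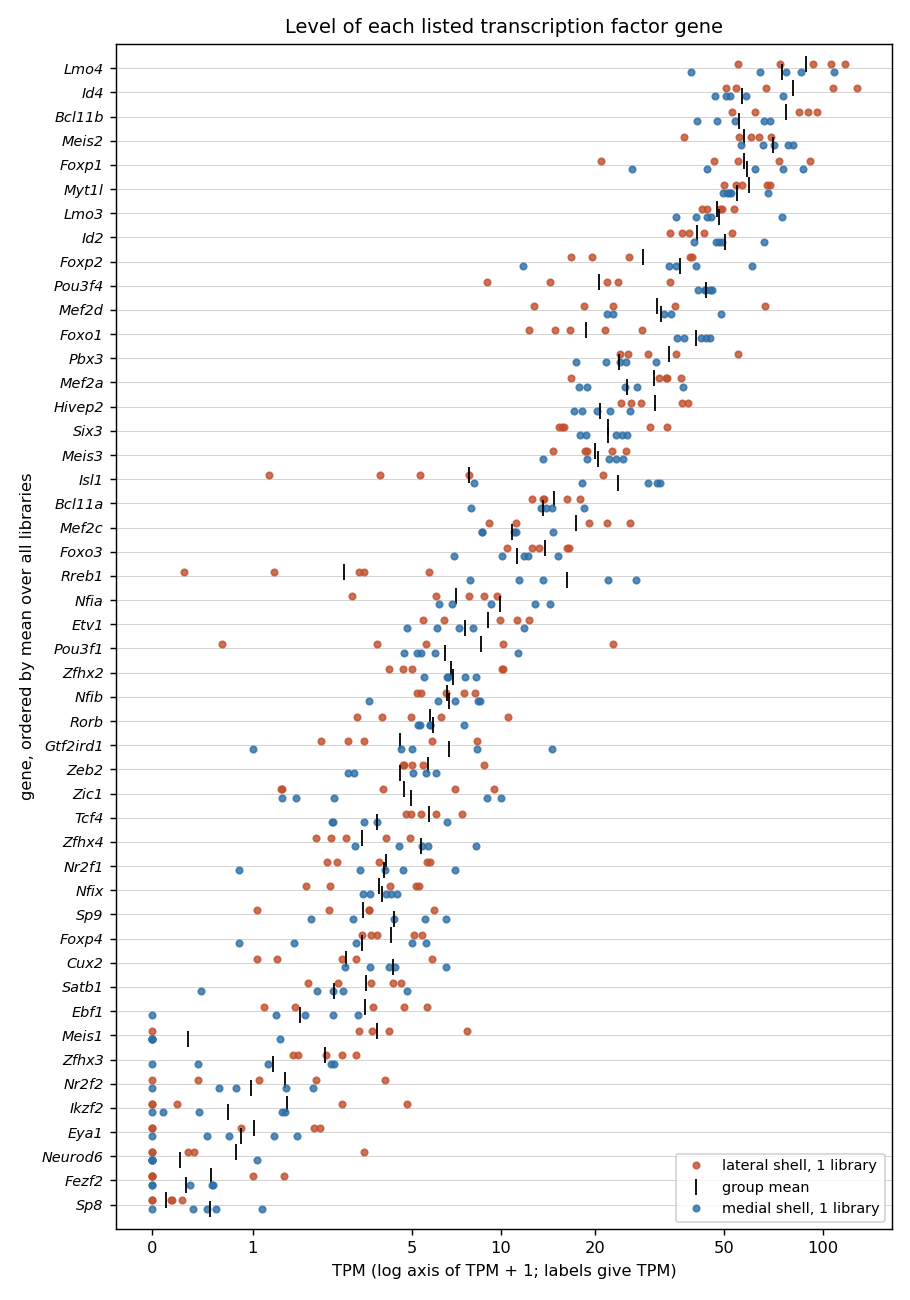
TPM of the 48 factors in each library, on a log axis of TPM + 1, ordered by the mean over 10 libraries. Points are single libraries of the lateral (red) and medial (blue) shell, and vertical ticks are group means. Levels span 0.301 to 82.0 TPM as means, and the points of the regions interleave for most genes but are apart for Foxo1, Pou3f4 and Rreb1.

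The tissue carried the markers of spiny projection neurons. The summed level of 9 spiny projection neuron markers was 3440 to 5825 TPM in lateral and 3304 to 5490 TPM in medial libraries, and 0 of the 9 were called. Penk, with means of 2549 and 2288 TPM, was the largest part of these sums. At an unadjusted p under 0.05, Ppp1r1b was on the lateral side (log2 fold change 0.45) and Tac1 on the medial side (-0.84). These were 22.2% of the 9, against 15.4% of all genes tested. Fezf2, of deep-layer cortical projection neurons, reached at most 1.49 TPM, and Neurod6, of cortical excitatory neurons, at most 3.31 TPM (lateral replicate 1). Rorb and Cux2, the other listed factors of cortical regions, reached 10.6 and 6.54 TPM. Among the other lists, some markers were called. Of 10 microglia markers 3 were higher in lateral (C1qa, Tmem119 and Ctss), 30% against 0.385% of all genes tested. Their sums over the 10 were 426 to 666 against 202 to 432 TPM. All 10 had positive log2 fold changes, against 31.3% of all genes tested. Of the 10, 9 had an unadjusted p under 0.05, all on the lateral side, against 3.03% of all genes tested. Of 6 genes listed for cortical glutamatergic neurons, 3 were analysed and Camk2n1 and Lamp5 were higher in lateral, with sums over the 3 of 384 to 599 against 102 to 207 TPM. In medial libraries, Sox11 of 5 neuroblast markers, Dgkg of 4 septal markers and Ntsr2 of 10 astrocyte markers were higher. The neuroblast sums were 103 to 358 TPM in lateral and 125 to 300.3 TPM in medial libraries. Stmn1, with means of 145 and 157 TPM, was the largest part of them. All 5 neuroblast markers had negative log2 fold changes, with a median of -1.09, where all genes tested had a median of -0.21 and 31.3% were positive. The septal sums were 7.35 to 17.6 against 13.6 to 23.2 TPM, and Dgkg, with means of 6.44 and 15.8 TPM, was their largest part. Only 2 of the 4 septal markers were tested, and Prdm16, tested beside Dgkg, was not called (log2 fold change 0.08). Zic4 (means of 0.635 and 0.547 TPM) and Trpc4 (1.37 and 0.878 TPM) had higher lateral means and were not tested. The astrocyte sums were 844 to 1158 against 1007 to 1395 TPM. Of 9 GABAergic interneuron markers 7 were tested and 0 called, with sums of 481 to 5641 against 28.2 to 1704 TPM. Sst (means of 1146 and 191 TPM) and Npy (1258 and 200 TPM) were the largest parts of these sums. Of the 7, 4 had an unadjusted p under 0.05, all on the lateral side (57.1%, against 3.03% of all genes tested). Calb2 had a negative log2 fold change (-1.36, means of 2.00 and 10.3 TPM), and the other 6 had positive ones. Of 10 oligodendrocyte markers 0 were called, with sums of 310 to 1037 against 113 to 514 TPM. Of these 10, 9 had positive log2 fold changes, against 31.3% of all genes tested. The part of these cell types in the results on the factors was not tested.

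Foxo1 (chromosome 3, 52268336 to 52353221, plus strand) was at 14.9, 21.5, 12.4, 16.8 and 28.2 TPM in lateral replicates 1 to 5. In medial replicates 1 to 5 it was at 44.1, 37.9, 45.3, 36.0 and 42.5 TPM. All 5 medial values lay above the highest lateral value. The means were 18.7 ± 6.24 TPM (SD, n = 5) in lateral and 41.2 ± 4.05 TPM (SD, n = 5) in medial libraries, a 2.20-fold ratio. The log2 fold change was -1.14 with a standard error of 0.22 (95% interval -1.62 to -0.67, limma adjusted p = 0.0248). Foxo1 held its call in 12 of 22 alternative fits. Among the settings that ended the call were median-ratio scaling (adjusted p = 0.0613), quantile normalization (0.0517) and a constant prior variance (0.0547). The same held when leaving out any 1 of the lateral libraries 1 and 4 or the medial libraries 2, 3, 4 and 5, with adjusted p of at most 0.0631. An exon of Foxo1 overlaps Gm20402 on the other strand, and the sources used here do not say whether counting used strand.

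Foxo3, the relative of Foxo1 that is regulated in the same way, was at 10.5, 16.7, 13.3, 12.7 and 16.4 TPM in lateral and 12.3, 10.1, 11.9, 6.97 and 15.4 TPM in medial replicates 1 to 5. Its regions overlapped, and it was not called (difference 0.29 on the log2 scale, interval from -0.24 up to 0.83, limma, adjusted p = 0.615). The ratio of Foxo1 to Foxo3 within a library does not change when all its values are multiplied by the same number, as in median-ratio scaling. Quantile normalization is not of that kind and can change the ratio. In TPM the ratio was 0.928 to 1.72 in the lateral and 2.77 to 5.16 in the medial libraries, with medians of 1.32 and 3.75. Every medial ratio was above every lateral one. These ratios were chosen after the values were seen and carry no test.

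**Figure D2:**
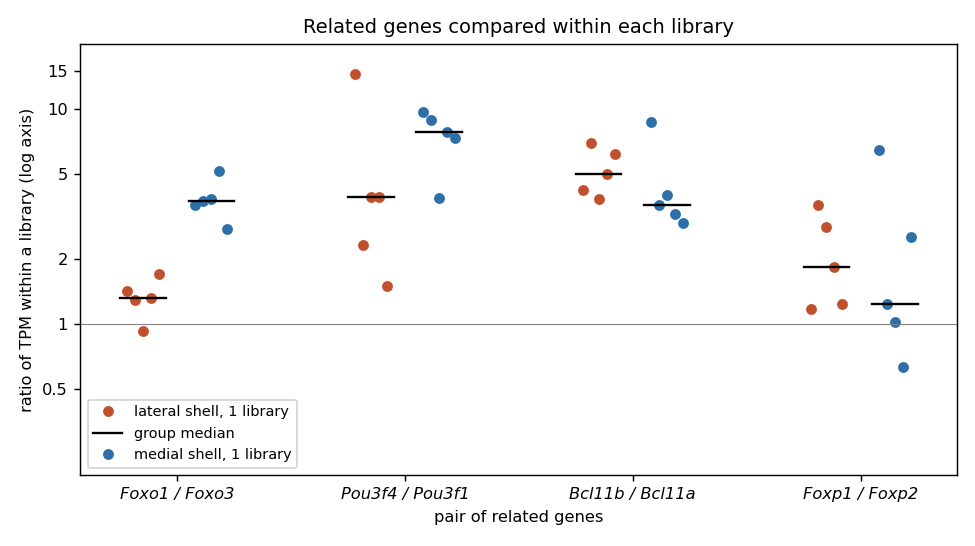
Ratio of TPM of related factors within each library (log axis), for lateral (red) and medial (blue) libraries, with group medians as bars. The ratios of Foxo1 to Foxo3 do not overlap between the regions, and those of the other 3 pairs do.

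Rreb1 (chromosome 13, 37778400 to 37952005, plus strand) had the largest log2 fold change in size among the tested factors on the log2(TPM + 1) scale. With a pseudocount of 0.1, that of Meis1 (3.60) was larger in size than that of Rreb1 (-2.91). It was at 0.246, 5.73, 3.32, 3.14 and 1.32 TPM in lateral replicates 1 to 5. Medial replicates 1 to 5 held 26.8, 11.5, 7.93, 22.0 and 13.7 TPM. The lowest medial value lay above the highest lateral one, and both regions varied several-fold among their libraries. The means were 2.75 ± 2.101 TPM (SD, n = 5) and 16.4 ± 7.79 TPM (SD, n = 5), a 5.96-fold ratio. The log2 fold change was -2.31 with a standard error of 0.46 (95% interval -3.31 to -1.31, limma adjusted p = 0.0287). With a pseudocount of 5 it was -1.43, over 1.5 times smaller.

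The call for Rreb1 held in 12 of 22 alternative fits. Among other settings, it ended with a pseudocount of 0.1 (adjusted p = 0.0703), under median-ratio scaling (0.0503), and when any 1 of the lateral libraries 4 and 5 or the medial libraries 1, 2, 4 and 5 was left out (at most 0.0759). Lateral replicate 5 and medial replicate 2 stood apart from the rest by a value near 0 for AY036118, a gene at 82500 to 144263 TPM in the others. Without both, the adjusted p was 0.134 for Rreb1 while Foxo1 kept its call. Rreb1 was also listed as a marker of the granule cells of the islands of Calleja, small cell clusters of the ventral striatum. Of that list Drd3 was not analysed, and Rxfp1 was at 0 to 0.325 TPM in lateral and 0 to 1.07 TPM in medial libraries. The part of those cells in the Rreb1 difference was not tested.

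Pou3f4, a POU homeodomain gene of the lateral ganglionic eminence on the X chromosome (110814280 to 110817207, plus strand), was at 9.04, 23.7, 14.4, 21.8 and 34.4 TPM in lateral replicates 1 to 5. Medial replicates 1 to 5 were close together, at 45.5, 46.2, 43.8, 41.7 and 44.0 TPM. All medial values lay above all lateral ones, and the lateral libraries spread far more widely than the medial ones. The means were 20.7 ± 9.64 TPM (SD, n = 5) and 44.2 ± 1.73 TPM (SD, n = 5). The difference did not pass (difference -1.19 on the log2 scale with SE 0.28, adjusted p = 0.061 from limma). It passed without lateral replicate 5, the highest lateral library (adjusted p = 0.0334), and with a pseudocount of 5 (0.0453). Its relative Pou3f1 ranged from 0.621 to 22.8 TPM in lateral and from 4.68 to 11.4 TPM in medial libraries (log2 fold change -0.11, adjusted p = 0.95).

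**Figure D3:**
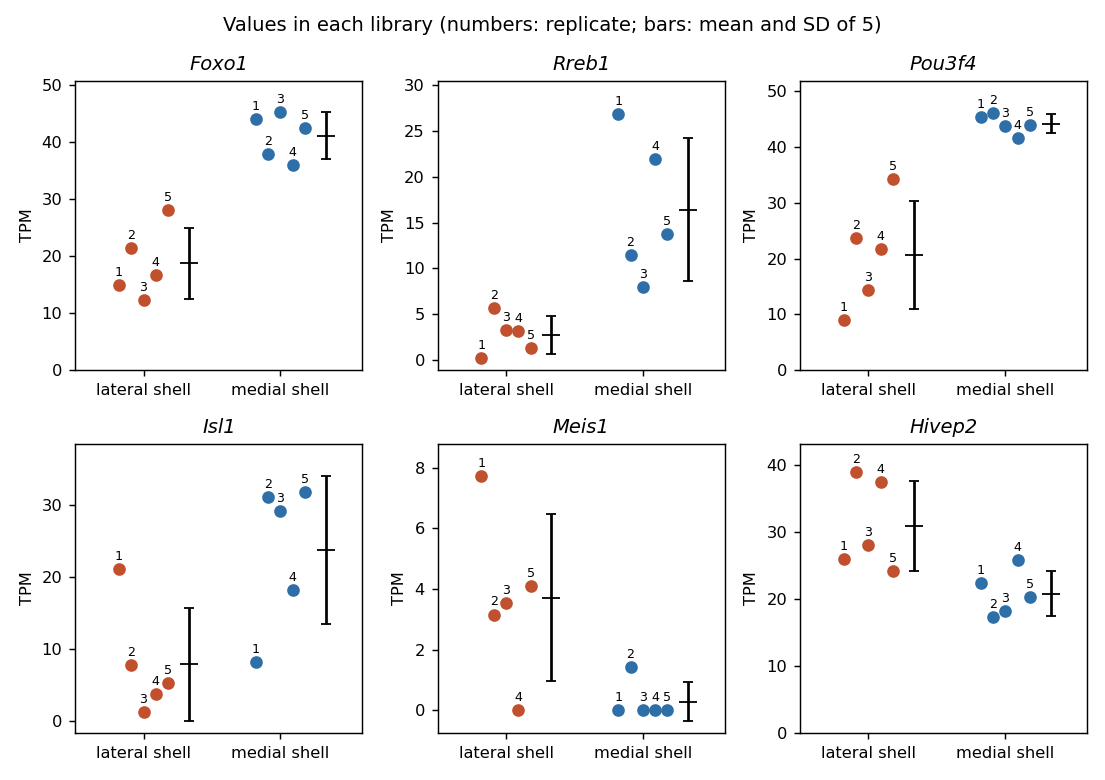
TPM of 6 factors in each library of the lateral (red) and medial (blue) shell, with the replicate number beside each point and the mean and SD of 5 libraries as bars. Medial values of Foxo1, Rreb1 and Pou3f4 lie above all lateral values, while those of Isl1, Meis1 and Hivep2 overlap.

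Isl1 is the LIM homeodomain factor of Drd1 spiny projection neurons and of cholinergic interneurons. It falls outside the rule for genes given by library, and was added after its values were seen. It was at 21.2, 7.83, 1.24, 3.81 and 5.31 TPM in lateral and 8.19, 31.2, 29.3, 18.3 and 31.8 TPM in medial replicates 1 to 5. The regions overlapped through lateral replicate 1, the highest lateral library, and medial replicate 1, the lowest medial one. The means were 7.88 ± 7.82 TPM and 23.7 ± 10.3 TPM (SD, n = 5 each), and the difference did not pass (difference -1.74 on the log2 scale, interval from -2.90 up to -0.59, limma, adjusted p = 0.143). In 22 alternative fits its adjusted p ran from 0.0510 to 0.374. Drd1 itself was at 76.0 to 142 TPM in lateral and 85.2 to 155 TPM in medial libraries. Chat, the acetylcholine-synthesizing enzyme of cholinergic interneurons, was highest for its region in lateral replicate 1 (39.3 TPM) and medial replicate 5 (49.1 TPM), the libraries where Isl1 was also highest for its region. In lateral replicates 2 to 5, with Isl1 at 7.83, 1.24, 3.81 and 5.31 TPM, Chat was at 8.48, 21.8, 0.399 and 0.546 TPM. In medial replicates 1 to 4, with Isl1 at 8.19, 31.2, 29.3 and 18.3 TPM, Chat was at 0, 0.418, 5.45 and 33.7 TPM. The part of cholinergic interneurons in the Isl1 values was not tested.

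The other factors of spiny projection neurons were not called. Bcl11b, needed for the maturation of spiny projection neurons in both classes, was at 52.9 to 95.8 TPM in lateral and 41.3 to 69.2 TPM in medial libraries (difference 0.45 on the log2 scale, adjusted p = 0.323 from limma). Foxp1 was at 20.9 to 91.5 TPM in lateral and 26.1 to 86.6 TPM in medial libraries (-0.07, adjusted p = 0.948). Foxp2, a forkhead factor with a known part in speech and vocal learning, was at 16.8 to 40.1 against 11.8 to 60.9 TPM (-0.28, adjusted p = 0.766). Six3, of Drd2 neurons, had means of 22.1 and 22.0 TPM (-0.06, 95% interval -0.61 to 0.49, adjusted p = 0.937). Bcl11a was at 12.7 to 18.02 against 7.97 to 18.5 TPM (0.14, adjusted p = 0.824). Among the less abundant factors, Ebf1 of Drd1 neurons had means of 3.34 and 1.76 TPM (0.67, 95% interval -0.38 to 1.72) and Sp9 of Drd2 neurons 3.27 and 4.27 TPM (-0.34, -1.21 to 0.54). The zinc finger homeobox genes Zfhx2, Zfhx3 and Zfhx4 and the forkhead gene Foxp4 had log2 fold changes of -0.10, 0.66, -0.58 and 0.43, with adjusted p of 0.447 to 0.909. Sp8 was listed at 0 in 2 lateral and 1 medial libraries and reached 1.14 TPM, and Ikzf2 was listed at 0 in 2 lateral and 1 medial libraries and reached 4.79 TPM. Of the 17 tested factors in this group, 6 had positive and 11 negative values, and 10 and 7 under median-ratio scaling. The 6 are 35.3% of the group, near the 31.3% of all genes tested with positive values.

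The TALE homeodomain factors, the Meis and Pbx proteins, bind DNA as partners of each other and of other homeodomain proteins. Of the 4 tested, 0 were called. Meis1 was at 7.74, 3.16, 3.54, 0 and 4.11 TPM in lateral replicates 1 to 5. In the medial shell it was listed at 0 in 4 libraries and at 1.41 TPM in replicate 2. The regions overlapped because lateral replicate 4 was listed at 0, and the difference did not pass (difference 1.69 on the log2 scale, interval from 0.45 up to 2.93, limma, adjusted p = 0.186). The log2 fold change of Meis1 was 3.60 with a pseudocount of 0.1 and 0.67 with one of 5, and the gene passed the filter on low values mainly through its lateral libraries. Exons of Meis1 overlap Gm37818 on its strand and Gm16140 on the other. Meis2, the abundant member in this tissue, was at 37.7 to 69.5 TPM in lateral and 56.6 to 81.0 TPM in medial libraries (-0.31, adjusted p = 0.460). Meis3 was at 14.7 to 25.1 against 13.7 to 24.5 TPM (-0.03, 95% interval -0.51 to 0.45, adjusted p = 0.967).

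Pbx3 was at 25.5, 29.4, 24.0, 35.8 and 55.3 TPM in lateral and 21.7, 17.4, 30.9, 23.9 and 25.0 TPM in medial replicates 1 to 5. The lateral maximum was in replicate 5 and the regions overlapped (difference 0.45 on the log2 scale, interval from -0.07 up to 0.98, limma, adjusted p = 0.402).

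Factors of neuronal activity and maturation formed the third group, with 0 of 9 called. Hivep2, a zinc finger gene of the kappa-B-binding HIVEP family, was at 25.9, 38.9, 28.0, 37.4 and 24.2 TPM in lateral and 22.4, 17.2, 18.2, 25.7 and 20.3 TPM in medial replicates 1 to 5. Medial replicate 4 was above the lowest lateral library, so the regions overlapped (difference 0.54 on the log2 scale, interval from 0.10 up to 0.97, limma, adjusted p = 0.230). Mef2c, a calcium-regulated MADS-box factor, was at 21.8, 25.8, 11.2, 9.16 and 19.2 TPM in lateral and 14.8, 8.71, 11.1, 11.2 and 8.68 TPM in medial replicates 1 to 5. Lateral replicates 3 and 4 lay within the medial range, and Mef2c was not called (0.57, 95% interval -0.07 to 1.21, adjusted p = 0.388). Its relatives Mef2a and Mef2d had log2 fold changes of 0.27 and -0.21. Mef2d ranged from 12.9 to 66.5 TPM among the lateral libraries alone. Myt1l, which represses non-neuronal genes in neurons, was at 49.98 to 69.0 TPM in lateral and 49.8 to 68.2 TPM in medial libraries (0.12, 95% interval -0.23 to 0.47). Tcf4, a partner of basic helix-loop-helix factors, had means of 5.71 and 3.71 TPM (0.56, adjusted p = 0.431). The chromatin organizer Satb1, the zinc finger homeobox factor Zeb2 and Gtf2ird1 had log2 fold changes of 0.41, 0.29 and -0.30, with adjusted p of 0.681 to 0.824. Of the 9, 7 had positive values in the main fit (77.8%, against 31.3% of all genes tested). Under median-ratio and quantile scaling 7 also did so, where the medians of all genes were -0.02 and -0.001.

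**Figure D4:**
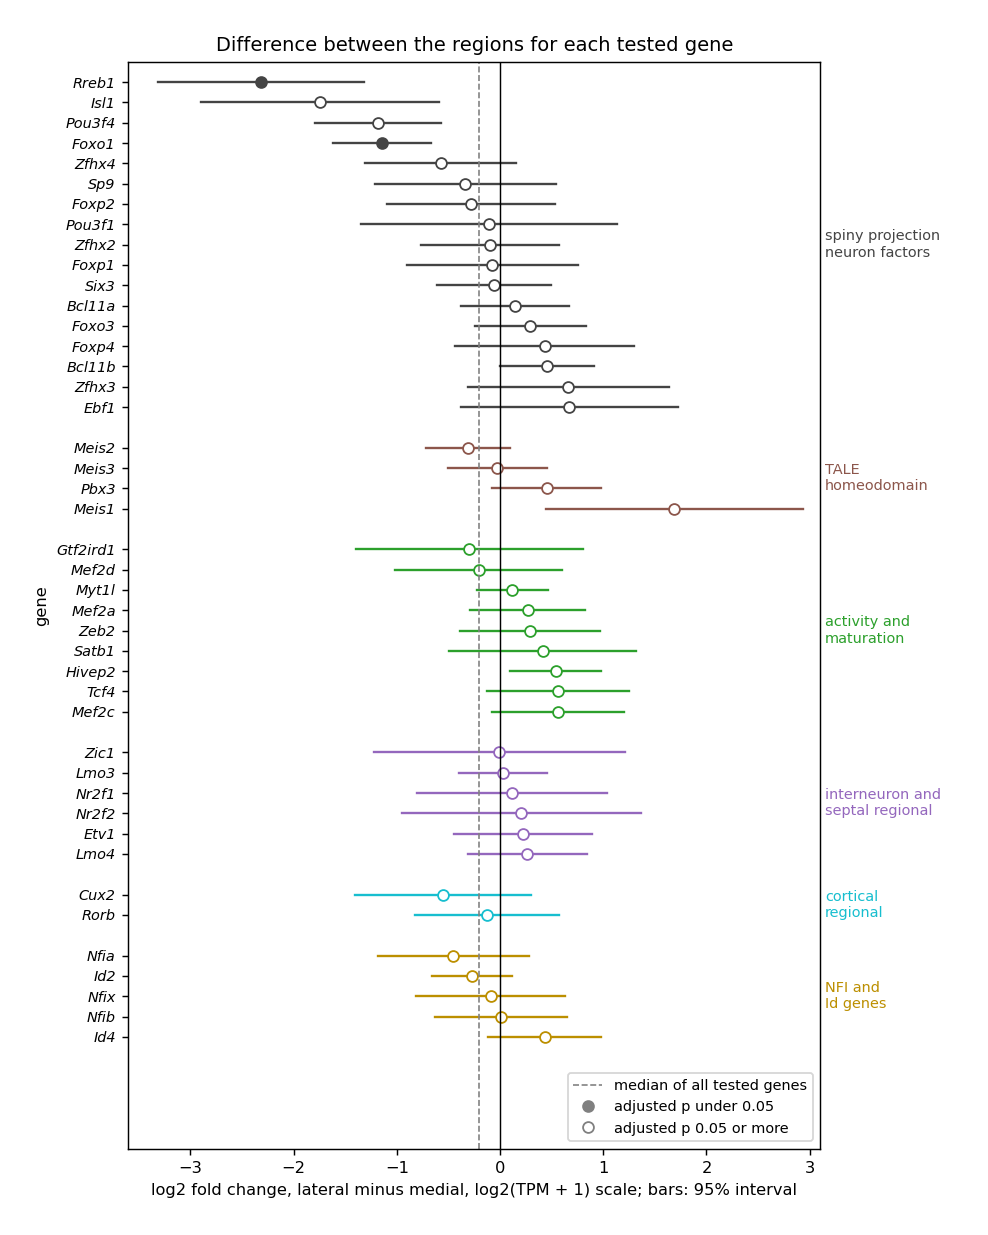
Log2 fold change, lateral minus medial, of the 43 tested factors with 95% intervals, in their groups. Filled circles have a limma adjusted p under 0.05 (Foxo1 and Rreb1, both negative), open circles do not, and the dashed line is the median of all tested genes at -0.21.

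Factors of interneurons, septum and other ventral regions made up the next group, with 0 of 6 called. Of the 6, 5 had positive values in the main fit (83.3%, against 31.3% of all genes tested). Under median-ratio and quantile scaling 6 did so, where the medians of all genes were -0.02 and -0.001. Lmo4 was at 116, 93.1, 74.1, 55.3 and 106 TPM in lateral and 64.5, 108, 85.9, 39.7 and 77.3 TPM in medial replicates 1 to 5. Its regions overlapped over most of their range (difference 0.27 on the log2 scale, interval from -0.31 up to 0.84, limma, adjusted p = 0.679). Its relative Lmo3 had means of 47.8 and 48.4 TPM (0.03, -0.40 to 0.45). Etv1, an ETS factor, was at 5.46, 9.97, 12.3, 11.3 and 6.46 TPM in lateral and 7.27, 4.80, 11.9, 6.10 and 8.07 TPM in medial replicates 1 to 5. Its ranges were close to equal (0.22, 95% interval -0.44 to 0.89, adjusted p = 0.774). The nuclear receptors Nr2f1 and Nr2f2 had log2 fold changes of 0.12 and 0.21, and both were low (means of at most 4.02 and 1.51 TPM). Eya1, a cofactor of the Six3 family of homeodomain proteins, reached 2.18 TPM and was listed at 0 in 2 lateral and 1 medial libraries.

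Zic1, a zinc finger factor of the septum and medial forebrain, had nearly equal regional means but varied widely within each region. It was at 9.53, 3.90, 7.05, 1.45 and 1.43 TPM in lateral and 1.46, 1.69, 2.49, 10 and 8.99 TPM in medial replicates 1 to 5 (difference -0.01 on the log2 scale, interval from -1.22 up to 1.21, limma, adjusted p = 0.996). The cholinergic marker Chat was at 39.3, 8.48, 21.8, 0.399 and 0.546 TPM in the same lateral libraries. In medial replicates 1 to 5 Chat was at 0, 0.418, 5.45, 33.7 and 49.1 TPM. The 4 libraries highest in Zic1, lateral replicates 1 and 3 and medial replicates 4 and 5, were also the 4 highest in Chat. The next in both were lateral replicate 2 and medial replicate 3, and the other 4 libraries had at most 1.69 TPM of Zic1 and 0.546 TPM of Chat. Slc5a7, the choline transporter, was likewise at 31.3 TPM or more in those 4 libraries and at 11.1 TPM or less in the other 6. Zic4, whose exons overlap those of Zic1 on the opposite strand, was at 0.855 to 1.43 TPM in the 4 libraries and at most 0.444 TPM elsewhere. Eya1 was at 1.32 to 2.18 TPM in the 4 libraries and at most 0.853 TPM in the others. This side-by-side reading was chosen after the values were seen and was not tested.

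**Figure D5:**
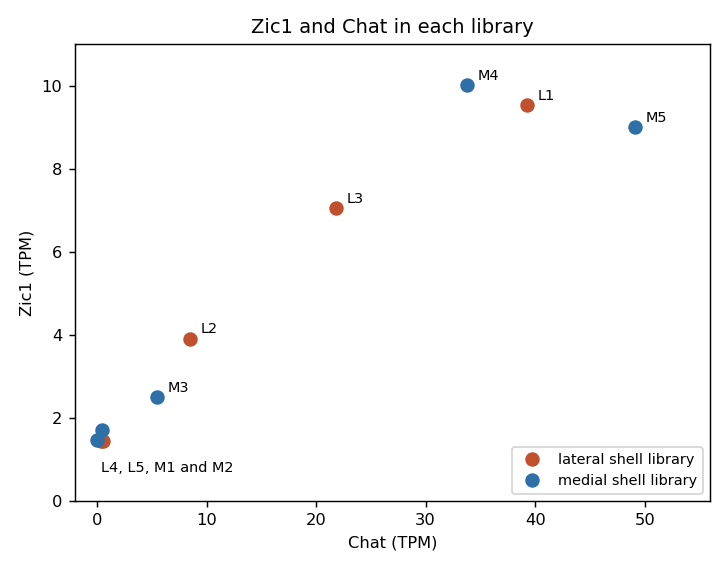
Zic1 (vertical axis, TPM) against Chat (horizontal axis, TPM) in the 10 libraries, lateral in red (L) and medial in blue (M), numbered by replicate. L1, L3, M4 and M5 lie at 7.05 TPM of Zic1 or more and 21.8 TPM of Chat or more, and each region has libraries at both ends.

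Of the cortical factors, Rorb and Cux2 passed the filter and 0 of the 2 were called. Cux2, of upper-layer neurons, was at 1.37, 1.06, 5.87, 2.70 and 3.07 TPM in lateral and 3.48, 4.32, 6.54, 2.78 and 4.10 TPM in medial replicates 1 to 5. Its regions overlapped (difference -0.56 on the log2 scale, interval from -1.41 up to 0.30, limma, adjusted p = 0.541). Rorb, a nuclear receptor of layer 4, was at 10.6, 3.87, 4.92, 6.30 and 3.11 TPM in lateral and 5.33, 7.55, 5.75, 5.26 and 5.77 TPM in medial replicates 1 to 5. Its medial values lay inside the lateral range (-0.12, 95% interval -0.82 to 0.57, adjusted p = 0.889), and the sign of its difference turned under median-ratio scaling.

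The nuclear factor I genes Nfia, Nfib and Nfix and the inhibitors Id2 and Id4 act in neurons and, strongly, in astrocytes, and 0 of 5 were called. Id4 was at 54.5, 127, 67.0, 50.6 and 107 TPM in lateral and 75.8, 50.7, 52.2, 47.1 and 58.3 TPM in medial replicates 1 to 5. Lateral replicates 2 and 5 were above all medial values and the other 3 were not (difference 0.43 on the log2 scale, interval from -0.12 up to 0.98, limma, adjusted p = 0.448). Id2 was at 53.0, 43.6, 34.3, 39.2 and 37.2 TPM in lateral and 40.7, 48.4, 49.4, 47.5 and 66.0 TPM in medial replicates 1 to 5. Lateral replicates 1 and 2 lay within the medial range (-0.27, 95% interval -0.66 to 0.12, adjusted p = 0.506). Nfia, Nfib and Nfix had log2 fold changes of -0.45, 0.01 and -0.09, with adjusted p of 0.566 to 0.994. Of 10 astrocyte markers, 8 had negative and 2 positive log2 fold changes (20% positive, against 31.3% of all genes tested). Their median was -0.64, and 1 was called (Ntsr2, higher in medial). The part of astrocytes in the values of these 5 factors was not tested.

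A list of 97 further transcription factors, relatives of the members or factors of ventral forebrain development, served as their setting. Of the 58 that passed the filter, 2 were higher in medial, among them the retinoic acid receptor gene Rarb, and 0 in lateral, 3.45% against 1.48% of all genes tested. Rarb, a receptor of spiny projection neurons, was at 33.1 ± 9.61 TPM (SD, n = 5) in lateral and 69.4 ± 15.8 TPM (SD, n = 5) in medial libraries (difference -1.06 on the log2 scale, adjusted p = 0.0344 from limma). The median of the 58 was -0.07. Under median-ratio scaling 1 was higher in lateral and 0 in medial, and Rarb had an adjusted p of 0.0576. The call of Rarb also ended without a mean-variance trend (0.0866) and without both libraries near 0 for AY036118 (0.178), and 0 of the 58 were then higher in medial. Leaving out any 1 of 8 libraries ended the call of Rarb (lateral 1, 3, 4 and 5, medial 2, 3, 4 and 5; adjusted p of at most 0.0991). Peg3, an imprinted zinc finger gene, was at 40.7 to 56.9 TPM in lateral and 64.1 to 82.3 TPM in medial libraries. It did not pass (-0.59, adjusted p = 0.0828). Klf9, a zinc finger gene induced by glucocorticoid and thyroid hormones, was at 72.3 to 93.5 TPM in lateral and 55.5 to 65.8 TPM in medial libraries, and did not pass (0.43, adjusted p = 0.161). Neither gene overlapped between the regions. In all, 3 of the 58 did not overlap with medial values above and 1 with lateral values above. Over all genes tested these shares were 3.39% and 0.859%.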

How the data were processed

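The deposited table holds TPM, scaled by the authors to 1000000 per library, for 20483 genes in 10 libraries. Builds GRCm38 and mm10 are named in the submitters' processing notes, with featureCounts 1.6.3, StringTie 1.3.4, HISAT2 2.1.0 and fastp 0.20.0, but no role is stated for them. The sources used here give no annotation, use of strand or gene filter. TPM keeps no read depth, so depth is unknown and no counting interval can be given.

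The table was fitted as a whole with limma 3.58.1 in R 4.3.3 on log2(TPM + 1), with moderated variances that follow a mean-variance trend, over genes of at least 1 TPM in at least 5 libraries. Fold changes on this scale understate those of low genes. Gene positions and overlaps came from GENCODE M21. Figures used matplotlib 3.10.9. A limma model of the same form, written separately, was run on simulated data before use. It recovered 19.7% of simulated log2 differences of 1, 71.6% of those of 2 and 89.6% of those of 3. Of its 129 calls, 8 were false. The simulated noise was normal and drawn independently for each gene and library. Variation shared by the genes of a library was not simulated, so these rates need not hold for the real libraries.

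The members, lists and tests were chosen with earlier results of these data known. Factors given by library are those with an adjusted p under 0.05, those whose regions do not overlap and, in each group, the 2 with the smallest p. Isl1, Foxo3, Zic1 and the ratios were added after their values were seen. Alternatives changed the pseudocount, filter, scaling, variance model, sample weights, replicate block and each library in turn. One gene of the wider list is not reported here.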

Additional observations from a re-analysis of the deposited data

Results flagged for a closer look

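Values on the log2(TPM + 1) scale were checked for a single library whose gap to its nearest neighbour takes up most of the range of its group. For normally distributed values, chance alone meets this check in about 1 in 20 groups. Of 96 combinations of factor and region, 8 met it. In the lateral shell, Mef2a was at 16.9 TPM in replicate 3, below the other 4 libraries (31.6 to 37.1 TPM), and Zeb2 was at 8.79 TPM in the same library, above the others (4.62 to 5.44 TPM). Neurod6 was at 3.31 TPM in lateral replicate 1, against at most 0.336 TPM in the others. In the medial shell, Myt1l was at 68.2 TPM in replicate 1 (others 49.8 to 52.6 TPM) and Rorb at 7.55 TPM in replicate 2 (others 5.26 to 5.77 TPM). Meis1 was at 1.41 TPM in medial replicate 2, and Neurod6 at 1.06 TPM in medial replicate 3, where the other medial libraries were listed at 0. With the others at 0 any value above 0 meets the check, so the rate of 1 in 20 does not apply there. Pou3f1 was at 11.4 TPM in medial replicate 3 (others 4.68 to 6.01 TPM).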

How the results depend on the processing

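The count of factors higher in lateral was 0 in all 22 alternative fits. The count higher in medial, 2, was 1 with a pseudocount of 0.1, under quantile normalization, without a mean-variance trend and without both libraries near 0 for AY036118, and 0 under median-ratio scaling. It was 3 with a pseudocount of 5. Leaving out each library in turn gave 0 to 2. The median log2 fold change of the factors was 0.19 under median-ratio scaling and 0.25 under quantile normalization, where that of all genes was -0.02 and -0.001. With all genes, 60 were called higher in lateral and 171 in medial, and 88 and 82 under median-ratio scaling (48.2% medial, against 74.0%). The log2 fold change of Rorb, -0.12 with all libraries, turned positive under median-ratio scaling (0.055), under quantile normalization (0.14) and without both of those libraries (0.11), and ran from -0.34 to 0.030 when each library was left out. The labels number replicates within a region, and same-numbered libraries did not deviate together (correlations across genes of -0.05 to 0.04 over 5 pairs, with 0 of 5 lateral libraries closest to their own number). With the replicate block, 0 factors were called in either direction (adjusted p of 0.0782 for Foxo1, 0.0931 for Rreb1 and 0.0693 for Rarb), and 19 and 45 genes of the whole table. TPM gives no depth, so values near 0, as for Meis1, Sp8 and Neurod6, cannot be told from low sampling.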
